A study of Mus musculus with 3 samples.

Results

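Among the T cells sorted from B16F10 mouse melanomas, a set of 81 cells that the authors gave a Cd8 identity held transcripts that mark CD4 helper cells. A cell was a member when it had at least 1 UMI (unique molecular identifier, standing for 1 captured RNA molecule) of Cd8a or Cd8b1 and at least 1 UMI of each of 2 or more of 5 genes, Cd40lg, Tnfrsf4, Il17re, Serpinb1a and Zbtb7b. The 81 cells were part of 5564 cells in all, of 2994 with a Cd8 identity and of 2626 of these with a Cd8a or Cd8b1 UMI. They were set against the other 2545 cells with a Cd8 identity and a Cd8a or Cd8b1 UMI, from which 1 cell of nearly equal total UMIs was matched to each member, and against 945 cells of the authors' Cd4 class that held 2 or more of the same 5 genes, likewise matched. The rule counts the transcripts themselves, so their levels in the members describe the choice and support nothing.

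B16F10 is a transplantable melanoma line, here grown under the skin of mice whose strain and age the labels do not give. On the day after the tumor cells, purified T cells were given, either CD4 cells of the CD45.1 kind or CD8 cells of the CD45.2 kind, which surface antibodies can tell apart. Tumors of 10 mice, resected on day 11, were pooled, and no group had a further treatment. T cells with CD4, with CD8 or with both co-receptors were sorted as 4 populations, given 1 hashtag each and run as 1 library that reads the 5′ ends of transcripts. The labels tie none of the hashtag numbers 1 to 4 to a population, so the numbers are parts of 1 pool and not replicates, and no comparison has a test across samples. The labels do not say how the authors called a cell's identity. Every interval is a 95% interval for counting error only, and UMIs of 1 cell are not independent.

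In the thymus, precursors that carry both co-receptors become either CD4 helper cells or CD8 killer cells. Zbtb7b encodes ThPOK, the transcription factor that holds CD4 cells to the helper fate, and Runx3 encodes a factor of the opposite, cytotoxic fate. Cd40lg encodes the ligand with which helper cells activate B cells and dendritic cells, Tnfrsf4 encodes the costimulatory receptor OX40, Il17re encodes a chain of an interleukin 17 receptor, and Serpinb1a encodes an inhibitor of serine proteases. OX40 is known on activated CD4 cells, on regulatory T cells and, in lesser amounts, on activated CD8 cells.

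Most members held the least the rule allows. Of the 81 cells, 72 had 2 of the 5 genes and 9 had 3, while none had 4 or 5, against 661, 228, 49 and 7 cells with 2, 3, 4 and 5 genes in the Cd4 class. Just outside the rule lay 416 Cd8-identity cells with 1 of the genes, which was Cd40lg in 156 of them. Cd40lg was found in 57 members, in 44 of them as 1 UMI, Tnfrsf4 in 53 members, Zbtb7b in 38, Serpinb1a in 19 and Il17re in 4. The commonest pair was Cd40lg with Tnfrsf4, in 33 members, ahead of Cd40lg with Zbtb7b in 21 and Tnfrsf4 with Zbtb7b in 19. In the 945 Cd4 class cells with 2 or more of the genes the order was close, with Cd40lg in 75.3% and Tnfrsf4 in 63.0%, but Serpinb1a reached 37.9% and Il17re 18.1%.

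**Figure D1:**
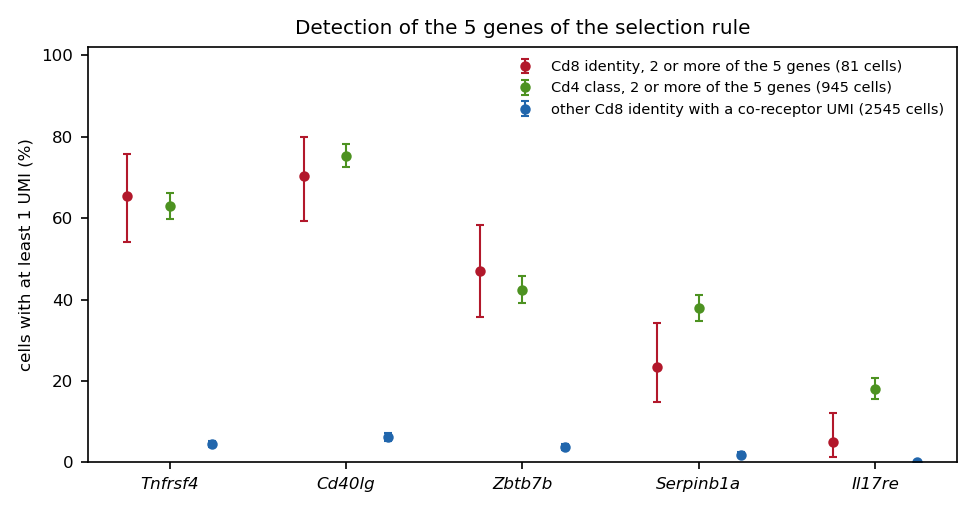
Share of cells with at least 1 UMI of each gene of the rule, in percent, with exact binomial 95% intervals, for the 81 Cd8-identity cells with 2 or more of the genes, the 945 Cd4 class cells with 2 or more, and the 2545 other Cd8-identity cells. The first 2 groups were chosen by these genes, so their height is set by the rule; Cd40lg and Tnfrsf4 carry most of it, and Il17re is found in only 4 of the 81 cells.

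Co-receptor transcripts were asked for in members and matched Cd8-identity cells and not in Cd4 class cells, so their presence describes the choice. The 81 cells had 4107 CPM (UMIs per 1000000 UMIs) of 6 T cell markers summed, against 3992 CPM in matched cells. Cd8b1, the CD8 beta chain, was found in 74 of 81 members with 695 UMIs, against 81 of 81 matched cells with 847 UMIs, and in 2 of 81 matched Cd4 class cells. Runx3 lay at 132 CPM in members and 144 CPM in matched cells (0.913-fold, 0.659 to 1.26). Cd4 UMIs, which the rule did not ask for, were found in 28 of 81 members (34.6%, 24.3 to 46.0), against 16 of 81 matched cells (19.8%, 11.7 to 30.1), and in 71 of 81 matched Cd4 class cells. The authors' Tdp class, whose cells hold UMIs of both Cd4 and Cd8a, took 25 members and 15 matched cells.

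The 5-gene part of the rule, 2 or more of the 5 genes, was also met by cells of other kinds. Members were 3.08% of Cd8-identity cells with a co-receptor UMI (81 of 2626, 2.46 to 3.82), at a median of 4171 UMIs. Cells of a natural killer-like cluster held 2 or more of the 5 genes in 8.20% (5 of 61, 2.72 to 18.1) at a median of 4996 UMIs, and those of them with a Cd8 identity in 5.77% (3 of 52, 1.21 to 15.9). Myeloid-led clusters as a whole held them in 23.2% (69 of 297, 18.5 to 28.5) at a median of 9465 UMIs. Their cells with fewer than 2 T cell marker UMIs held them in 2.31% (3 of 130, 0.478 to 6.60) at a median of 6937.5 UMIs. Cd8-identity cells without a co-receptor UMI held them in 19.3% (71 of 368, 15.4 to 23.7) at a median of 5029 UMIs. The intervals of the natural killer-like cells and of the 130 myeloid cells include the member share, and the others lie above it. The share alone thus does not set the members apart from cells of other kinds. Every cell was then thinned to 2000 UMIs, and only the 5-gene part of the rule was asked for. This part was met by 0.712% of Cd8-identity cells that had a co-receptor UMI before thinning (18 of 2527, 0.423 to 1.12). It was met by 0 of 57 natural killer-like cells (0 to 6.27%) and 0 of 121 myeloid cells with fewer than 2 T cell marker UMIs (0 to 3.00%). From these groups 99, 4 and 9 cells were left out as too shallow. It was met by 5.32% of thinned Cd8-identity cells without a co-receptor UMI (15 of 282, 3.01 to 8.62). In the whole myeloid-led clusters it was met by 3.125% (9 of 288, 1.44 to 5.85). The share differed between groups of Cd8-identity cells of like depth, with 4.56% (33 of 724, 3.16 to 6.34) in a cluster led by Dapl1, Cd7 and Nsg2, against 0.534% (5 of 937, 0.173 to 1.24) in a cluster led by Ccl5, Gzmk and Klrc1. Median UMIs were 3866 and 3644 in these clusters, which were made without the 5 genes and the co-receptor genes, but are led by genes that differ between members and matched cells and are 1 cluster at a coarser setting, so these shares are a description.

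Joined cells were looked for by 2 signs. UMIs of more than 1 Trbv gene, the variable segments of the T cell receptor beta chain, are a sign of joined cells, and a cell was counted with 2 UMIs or more of each of 2 such genes. Among cells with 4 or more Trbv UMIs this held for 19 of 67 members (28.4%, 18.0 to 40.7) and 15 of 69 matched cells (21.7%, 12.7 to 33.3), beside 16 of 51 (31.4%, 19.1 to 45.9) in the Cd4 class match. Macrophage markers reached 2 UMIs in 6 members and 13 matched cells, and dendritic cell markers in 18 members and 14 matched cells. In all, 7 members lay in clusters led by the myeloid genes Lyz2 or Cd209a. Without cells of 2 Trbv genes (62 members and 62 matched cells) the log2 ratios of the genes described below were -2.81 for Eomes, -1.68 for Gzmk, 1.66 for Gata3 and 0.92 for Tnfrsf18. Over all 81 they were -2.91, -1.62, 1.49 and 1.03.

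Members occurred under every hashtag number, at 4.36% of Cd8-identity cells with a co-receptor UMI in number 1 (13 of 298, 2.34 to 7.34), 2.30% in number 2 (19 of 825, 1.39 to 3.57), 2.87% in number 3 (25 of 872, 1.86 to 4.20) and 3.80% in number 4 (24 of 631, 2.45 to 5.61), and these intervals overlap. Of the Cd8-identity Tdp cells 7.99% were members (25 of 313, 5.24 to 11.6), against 2.42% in the Cd8 class (56 of 2313, 1.83 to 3.13). Tdp cells are deeper, with a median of 4981 UMIs against 4117 in the Cd8 class. Among cells with 3 or more UMIs of cycling genes 4.98% were members (21 of 422, median 8041 UMIs), against 2.72% of the rest (60 of 2204, median 3871 UMIs). Members had a median of 5767 UMIs, from 2318 to 20790, against 5765 in matched cells and 4135 in all comparison cells, and all levels below are against the matched cells unless said otherwise.

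Outside the rule, the members differed from matched cells in a small share of genes. A gene counted as measured with 20 or more UMIs over both groups, and as higher or lower when its summed level was 1.5-fold or more apart and the interval of the ratio did not include 1. A gene can pass the filter through 1 group alone, where it is high. The counts of called genes and the list medians below are thus in part fixed by the filter. This rule of size is not a test. By it 279 of 6241 measured genes were higher in members (4.47%) and 158 were lower (2.53%), with a median log2 ratio of 0.056 over all of them. The counts move with the reference, since 678 genes were higher against all 2545 comparison cells and 97 were lower in T cell clusters only. Costimulatory receptors were among the 12 highest abundant genes. Tnfrsf18, which encodes the receptor GITR, was found in 55 of 81 members and 39 of 81 matched cells, at 271 CPM and 130.3 CPM (2.08-fold, 1.57 to 2.78). By hashtag number 1 to 4 it was found in 10, 14, 18 and 13 members of 13, 19, 25 and 24, against 3, 12, 13 and 11 matched cells of 8, 23, 29 and 21. Icos, the inducible costimulator, was found in 49 of 81 members and 30 of 81 matched cells (1.96-fold, 1.40 to 2.77); its log2 ratio was 0.94, or 0.34 without cycling cells and 0.47 with matching within the hashtag number. Cd82, a membrane tetraspanin, was found in 71 of 81 members and 56 of 81 matched cells (1.77-fold, 1.44 to 2.19). Sit1, a transmembrane adaptor of T cell signaling, was found in 44 of 81 members and 26 of 81 matched cells (1.79-fold, 1.18 to 2.73).

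Others of the 12 highest abundant genes encode parts of signaling and metabolism. Odc1, the enzyme that starts polyamine synthesis, lay at 230.3 CPM in members and 113 CPM in matched cells (2.04-fold, 1.505 to 2.80). Inpp4b, a lipid phosphatase, lay at 219.8 CPM and 118 CPM in members and matched cells. Rasal3, a regulator of Ras, Kcnn4, a potassium channel opened by calcium, Samsn1, an adaptor protein, and Sppl2a, a protease within membranes, were between 1.83-fold and 2.03-fold higher. Cd6, a receptor that tunes T cell receptor signals, was highest of the 12 (2.18-fold, 1.57 to 3.07; 54 of 81 members and 34 of 81 matched cells), but its level in matched cells, 95.1 CPM, lay below the 155 CPM of all comparison cells, and with 5 matched cells per member its log2 ratio was 0.60 in place of 1.09. Under hashtag number 2 Cd6 was lower in members, with a log2 ratio of -0.22. Lamp1, a lysosomal membrane protein, was carried by 2 members that held 66 of its 149 UMIs.

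Of the CD4 lineage and helper list, 7 genes were measured and 4 were higher, Gata3, Maf, Cd4 and Icos, with none lower and a median log2 ratio of 0.94 against 0.056 over all genes. Gata3, a transcription factor of CD4 commitment and of type 2 helper cells, was found in 34 of 81 members (42.0%, 31.1 to 53.5) and 16 of 81 matched cells (19.8%, 11.7 to 30.1), at 87.9 CPM and 28.2 CPM (3.12-fold, 1.75 to 5.87). By hashtag number 1 to 4 it was found in 5, 12, 7 and 10 members of 13, 19, 25 and 24, against 0, 5, 6 and 5 matched cells of 8, 23, 29 and 21. Its share was higher in members under every number. Maf, a factor of follicular helper, type 17 and regulatory cells, was found in 20 of 81 members and 7 of 81 matched cells (2.25-fold, 1.37 to 3.80), but 27 of its 54 UMIs lay in 2 members, and without cells holding a Foxp3 UMI its log2 ratio was -0.12. Cd28 and Cd5, the lowest of the list, were 1.20-fold and 1.48-fold the matched level.

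Regulatory T cells restrain other T cells and depend on the factor FOXP3. Of 14 genes listed for them 6 were measured, Foxp3, Il2ra, Ctla4, Ikzf2, Tnfrsf18 and Nrp1, and these 6 were higher, with a median log2 ratio of 1.48. Foxp3 and Il2ra passed the filter only through the members, so the count and the median are in part fixed by the filter and carry no weight. Foxp3 was found in 7 members and in 0 of 81 matched cells (0 to 4.45%), against 1.81% of all comparison cells (46 of 2545) and 15 of 81 matched Cd4 class cells, and the list median was 0.95 against all comparison cells. Il2ra, the alpha chain of the interleukin 2 receptor, was found in 13 of 81 members and 1 of 81 matched cells, against 3.18% of all comparison cells. Ctla4, an inhibitory receptor of activated and regulatory cells, was found in 29 of 81 members and 16 of 81 matched cells (3.44-fold, 2.01 to 6.18). Of its 62 UMIs in members, 33 lay in the 7 members with Foxp3. Its log2 ratio of 1.64 was 0.79 against all comparison cells, 0.79 without cycling cells and 0.93 without cells holding a Foxp3 UMI.

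The log2 ratio of Foxp3 was 3.13, but -0.85 without cycling cells, and 0 with the rule on 4 genes without Tnfrsf4, which left 35 members. That of Il2ra was 2.75, or 0.20 without cycling cells, and that of Ctla4 1.64, or 0.86 with the rule on 4 genes. The 7 members with Foxp3 held OX40 and, but for 1, no CD40 ligand transcripts. All 7 held Tnfrsf4, Il2ra, Tnfrsf18 and Icos, 6 held Ctla4, 6 held Cd8b1, 2 held Cd4 and 1 held Cd40lg, and their median was 11831 UMIs, against 5552 in the other 74 members. Of those with enough Trbv UMIs, 3 of 4 with Foxp3 (19.4 to 99.4%) and 16 of 63 of the others (25.4%, 15.3 to 37.9) held 2 Trbv genes. In those 74 members Il2ra was found in 6 cells, Icos in 42, Tnfrsf18 in 48 and Gata3 in 31. Without cells holding a Foxp3 UMI the list median was 0.99, and the log2 ratios were 0.72 for Tnfrsf18, 1.30 for Gata3 and 0.71 for Icos.

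**Figure D2:**
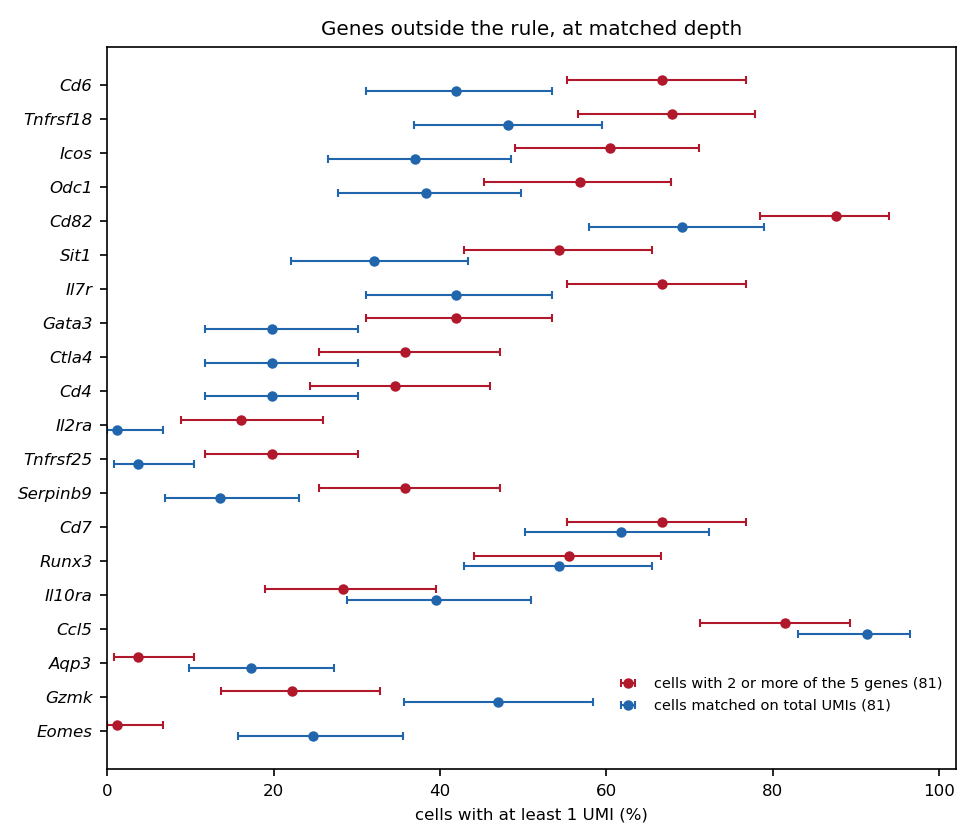
Share of cells with at least 1 UMI of 20 genes the rule did not use, in percent with exact binomial 95% intervals, in the 81 Cd8-identity cells with 2 or more of the 5 genes and in 81 Cd8-identity cells matched on total UMIs. Eomes was found in 1 of 81 members and 20 of 81 matched cells, and Gata3, Icos, Tnfrsf18 and Ctla4 lay the other way.

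Eomes and Gzmk, markers of cytotoxic CD8 cells, were lower in the members, but most genes of their lists were not. Of 13 measured cytotoxic genes 4 were higher and 2 lower, and of 10 CD8 lineage genes 0 were higher and 2 lower. Eomes passed the filter only through the matched cells. Eomes, a T-box transcription factor of CD8 memory and effector cells, was found in 1 of 81 members (1.23%, 0.0313 to 6.69), against 20 of 81 matched cells (24.7%, 15.8 to 35.5) and 19.3% of all comparison cells, with 1 UMI against 26 UMIs in members and matched cells (ratio 0.0384, 0.000937 to 0.234). By hashtag number 1 to 4 it was found in 0, 1, 0 and 0 members, against 1, 6, 8 and 5 matched cells. Members lay below matched cells under every number. Gzmk, which encodes granzyme K, a protease of cytotoxic granules, was found in 18 of 81 members (22.2%, 13.7 to 32.8) and 38 of 81 matched cells (46.9%, 35.7 to 58.3), at 75.6 CPM and 243 CPM (0.311-fold, 0.216 to 0.441). By number it was found in 2, 4, 5 and 7 members, against 2, 15, 13 and 8 matched cells, which is a lower share of members under every number. Ccl5, a chemokine of effector cells, lay at 3632 CPM in members and 6642 CPM in matched cells (0.547-fold, 0.518 to 0.577).

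The promoter of Gzmk is shown because Eomes, a T-box factor, and Gzmk were both low in the members. These are the 250 bases before its start, from RefSeq on GRCm38.p6, chr13:113180966-113181215 on the minus strand, with matches to the T-box core TCACAC or its reverse complement GTGTGA in capitals.
Gzmk: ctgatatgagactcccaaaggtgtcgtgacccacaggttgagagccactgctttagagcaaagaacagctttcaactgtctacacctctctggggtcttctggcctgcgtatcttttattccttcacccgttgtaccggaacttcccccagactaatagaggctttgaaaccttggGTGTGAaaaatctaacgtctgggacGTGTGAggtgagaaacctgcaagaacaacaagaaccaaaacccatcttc
It held 2 matches, which begin 74 and 49 bases before the start. Of 32851 mouse promoters of this length 12.3% held at least 1 match on either strand and 0.998% held 2 or more, and the promoter of Eomes held none. A match is a string of letters and not evidence of binding.

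Other cytotoxic genes did not follow Gzmk. Of 13 measured genes of the cytotoxic list 4 were higher, Gzmc, Serpinb9, Gzma and Lamp1, and 2 were lower, Gzmk and Ccl5, with a median log2 ratio of 0.058. Serpinb9, which shields cells from granzyme B, was found in 29 of 81 members and 11 of 81 matched cells (2.44-fold, 1.38 to 4.49), but matched within the hashtag number its log2 ratio was 0.062 in place of 1.17. For Gzma 2 members held 150 of 177 UMIs, and it was found in fewer members than matched cells, 10 against 16. For Gzmc 2 members held 28 of 29 UMIs, and matched cells held 1 UMI, so it passed the filter only through the members. Reads of the near-identical granzyme genes may be split between them. Of 10 CD8 lineage genes none was higher and 2 were lower, Eomes and Xcl1, a chemokine for cross-presenting dendritic cells that rested on 2 matched cells with 73 of its 92 UMIs. Eomes passed the filter only through the matched cells, with 1 UMI in members against 26. The list median was -0.20, and Klrc1 and Cd7, receptors shared with natural killer cells, were 1.26-fold and 1.23-fold the matched level.

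The 28 members with a Cd4 UMI and the 53 without one were described apart. Eomes was found in 0 of the 28 and 1 of the 53 cells. Gzmk was found in 10 of the 28 and 8 of the 53, Gata3 in 15 and 19, Tnfrsf18 in 18 and 37, Cd40lg in 18 and 39 and Cd8b1 in 23 and 51, and median depth was 7464 and 4734 UMIs. Against 53 matched cells that also lacked Cd4, the 53 members had log2 ratios of -2.69 for Gzmk, -1.51 for Ccl5, 1.25 for Tnfrsf18 and 1.25 for Gata3. Low Gzmk and Ccl5 and high Tnfrsf18 and Gata3 were thus also found in members without a Cd4 UMI.

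**Figure D3:**
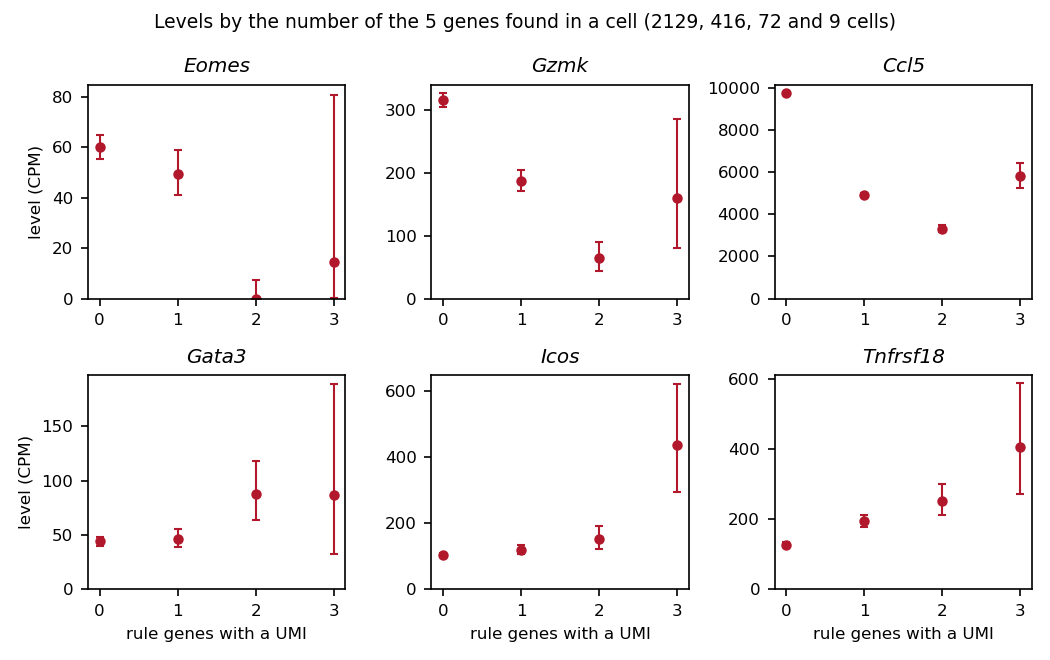
Levels in CPM, with exact Poisson 95% intervals, of 6 genes against the number of the 5 rule genes found in a Cd8-identity cell with a co-receptor UMI (2129 cells with 0, 416 with 1, 72 with 2 and 9 with 3). Gzmk lies at 315 CPM, 187 CPM, 64.0 CPM and 159.5 CPM, and Tnfrsf18 at 127 CPM, 195 CPM, 252 CPM and 406 CPM.

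Levels stepped with the number of rule genes in some genes and not in others. Eomes lay at 59.9 CPM (55.2 to 64.9) in cells with none of the 5 genes, 49.4 CPM (41.2 to 58.7) with 1, 0 UMIs in the 72 cells with 2 and 1 UMI in the 9 cells with 3. Gzmk already differed between cells with none and with 1 of the genes, at 315 CPM (304 to 326) and 187 CPM (170.4 to 204), and lay at 64.0 CPM (43.8 to 90.4) with 2. Ccl5 lay at 9791 CPM (9729.8 to 9852), 4939 CPM (4854 to 5025) and 3329 CPM (3171 to 3493) with 0, 1 and 2 genes. Tnfrsf18 lay at 127 CPM (120.0 to 134), 195 CPM (178 to 213) and 252 CPM (210 to 300.1), in the opposite order. Gata3 lay at 44.1 CPM (40.1 to 48.4) and 46.3 CPM (38.4 to 55.3) with 0 and 1 gene, intervals that overlap, and at 88.0 CPM (64.0 to 118) with 2. Median depth also differs along this order, at 4035, 5049, 5728.5 and 5847 UMIs with 0, 1, 2 and 3 genes, and its part was not tested. The 9 cells with 3 genes give wide intervals, and for Gzmk and Ccl5 they lay above the cells with 2.

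Receptor lists were described next. Of 10 measured costimulation genes 4 were higher, Tnfrsf25, Tnfrsf9, Tnfrsf18 and Icos, none was lower, and the median log2 ratio was 0.69, or 0.20 with matching within the hashtag number. Tnfrsf25 passed the filter only through the members, with 18 UMIs against 3, so this count is in part fixed by it. Tnfrsf25, a receptor of the tumor necrosis factor family also called DR3, was found in 16 of 81 members and 3 of 81 matched cells (5.99-fold, 1.75 to 31.8), and Tnfrsf9, which encodes 4-1BB, in 20 of 81 and 11 of 81 (2.61-fold, 1.74 to 4.004). The log2 ratio of Tnfrsf9 was 1.32, or 0.20 with matching within the hashtag number, and it was lower in members under hashtag number 3. Of 13 cytokine receptor genes 3 were higher, Il2ra, Il7r and Il21r, and Il10ra was lower (23 of 81 members and 32 of 81 matched cells; 0.485-fold, 0.312 to 0.741). Il7r, a receptor of naive and memory cells, was found in 54 of 81 members and 34 of 81 matched cells (1.70-fold, 1.33 to 2.19), but against all comparison cells its log2 ratio was 0.028. Among chemokine receptor genes Ccr2 and Ccr9 were lower and Ccr7 was higher. For Ccr7, a receptor for homing to lymph nodes, 2 members held 50 of 61 UMIs, and for Ccr9 2 members held all 16 UMIs.

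The other lists had between 0 and 5 genes called in 1 direction, beside 4.47% higher and 2.53% lower over all genes. Of 15 proliferation genes 5 were higher, Mki67, Cdc20, Top2a, Ccnb2 and Prc1, with a median of 0.37, though cells with 3 or more UMIs of cycling genes were about as many, 21 members and 20 matched cells. Of 10 inhibitory receptor genes Ctla4 and Cd200r1 were higher and none lower, with a median of 0.29, and Lag3 lay at 61.5 CPM in members and 86.3 CPM in matched cells (0.713-fold, 0.449 to 1.12). Of 10 genes of T cell receptor activation Nr4a1 and Nfkbia were higher, of 10 naive and memory genes Ccr7 and Il7r, of 11 interferon genes Ifit1 and Ifit3, of 11 stress genes Junb and of 10 type 1 helper and effector cytokine genes Ccl4, for which 2 members held 103 of 115 UMIs. None of these 5 lists had a lower gene, and their medians were 0.53, 0.23, 0.25, 0.28 and 0.16. Of 5 measured type 17 genes Tmem176a was higher and Aqp3, a water and glycerol channel, lower (3 of 81 members and 14 of 81 matched cells; 0.166-fold, 0.0314 to 0.570). No gene was called among 6 of tissue residency, 11 of glycolysis or 2 of type 2 and follicular helper cells, and no thymocyte gene was measured.

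Most of the 12 lowest abundant genes rested on a few matched cells. In 10 of the 12, the exceptions being Gzmk and Il10ra, the 2 richest matched cells held between 47.1% and 86.6% of the matched UMIs. Lyz2, a macrophage gene, and Ccl2, a monocyte attractant, were found in 4 and 3 members, against 6 and 5 matched cells. Cd74, the invariant chain of antigen presentation, was lower in its sum (0.488-fold, 0.445 to 0.535) but found in more members, 30 of 81 (37.0%, 26.6 to 48.5), than matched cells, 13 of 81 (16.0%, 8.83 to 25.9). Summed markers of dendritic cells lay at 1979.5 CPM in members, with Xcr1 and Clec9a at 0, against 4153 CPM in matched cells, and macrophage markers at 930.0 and 921 CPM. The richest member held 311 UMIs of the dendritic cell markers and the richest matched cell 909.

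Against the Cd4 class cells with 2 or more of the same genes, at matched depth, the members had more of the CD8 lineage and cytotoxic genes. The members were chosen by a Cd8 identity and a co-receptor UMI and the others by the Cd4 class. Differences in lineage genes between them thus in part describe the choice. The filter also fixes the counts and medians of these lists in part. By the same rule of size 316 of 6269 genes were higher in members (5.04%) and 256 were lower (4.08%), and these values share the members with those above. Of 7 measured CD8 lineage genes 6 were higher, Ctsw, Klrd1, Klrk1, Klrc1, Cd7 and Cd160, with none lower and a median log2 ratio of 1.63, against 0.031 over all genes. Cd7 lay at 396 CPM in members and 28.1 CPM in the Cd4 class cells (14.1-fold, 8.47 to 25.01), and Ccl5 at 3632 and 533 CPM (6.82-fold, 6.04 to 7.71). Of 12 cytotoxic genes 8 were higher and none lower, but among them the sums of Gzma, Gzmc and Lamp1 rest in part on 2 members each, as given above. Runx3 lay at 132 and 127 CPM (1.04-fold, 0.743 to 1.46).

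Of 10 measured genes of the CD4 lineage and helper list 6 were lower than in the Cd4 class cells, Cd4, Tnfsf11, Maf, Izumo1r, Ccr4 and Cd5, and Gata3 was higher, at 87.9 CPM in members and 47.5 CPM in the Cd4 class cells (1.85-fold, 1.14 to 3.07). Of 5 type 17 genes 4 were lower, Tmem176a, Tmem176b, Ltb4r1 and Aqp3, with a median of -1.62. Of 9 regulatory T cell genes 6 were lower, and Nrp1, a neuropilin, was higher (2.83-fold, 1.43 to 6.01). Of 10 naive and memory genes 5 were higher, Ccr7, Tcf7, Klf2, Dapl1 and Foxp1, and Satb1 was lower. The Ccr7 sum rests mostly on the same few members as above. Dapl1 was found in 18 of 81 members and in 0 of 81 Cd4 class cells (0 to 4.45%). Tnfrsf18 and Cd6 lay between both sides, at 271 and 207 CPM in members, 468 and 313 CPM in the Cd4 class cells and 130.3 and 95.1 CPM in matched Cd8-identity cells. Of 11 glycolysis genes 4 were lower in members, and of 11 interferon genes 5.

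**Figure D4:**
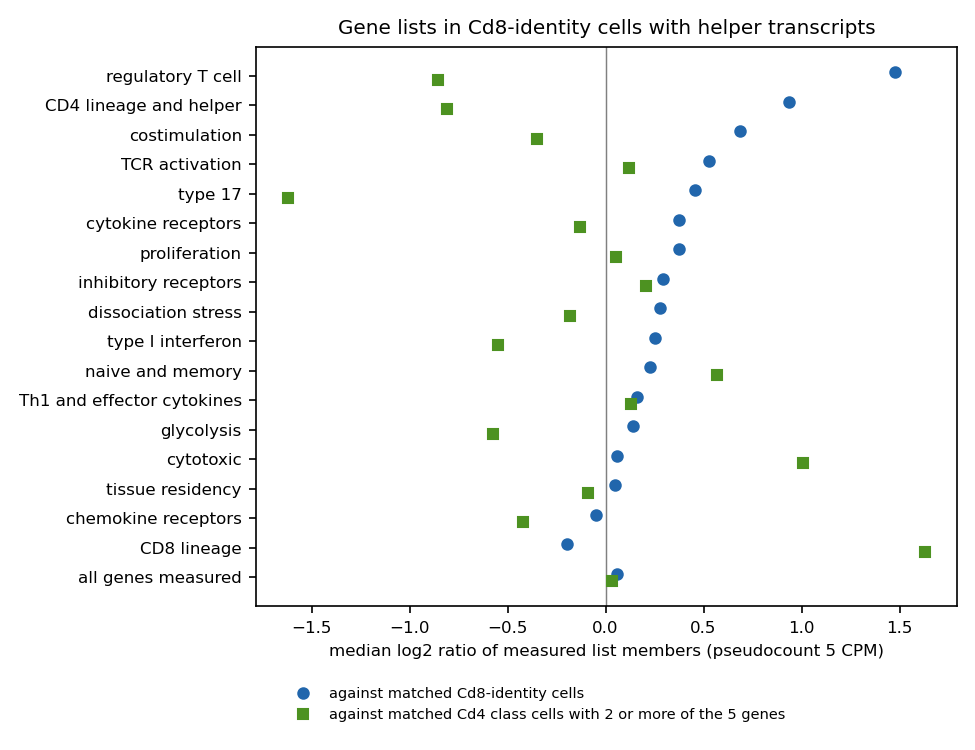
Median log2 ratio (pseudocount 5 CPM) of the measured genes of each list with 3 or more measured genes, for the 81 cells against 81 matched Cd8-identity cells (circles) and against 81 matched Cd4 class cells with 2 or more of the 5 genes (squares), which share the same 81 cells. The regulatory T cell list lies at 1.48 and -0.85, the CD8 lineage list at -0.20 and 1.63, and all genes measured at 0.056 and 0.031. The 1.48 is in part fixed by the filter and carries no weight. The 1.63 in part describes the choice of a Cd8 identity against the Cd4 class. The 2 medians of a list are over unlike genes, with 6 and 9 measured for the regulatory T cell list and 10 and 7 for CD8 lineage.

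By clustering on genes other than the 5 and the co-receptor genes, 33 of the 81 members (40.7%, 29.9 to 52.2) lay in the cluster led by Dapl1, Cd7 and Nsg2, 19 in a cycling-like cluster, 9 in one led by interferon-induced genes and 5 in the one led by Ccl5 and Gzmk. A further 4 lay in the cluster led by Serpinb1a, Cd40lg and Tmem176a, which held 515 of the 945 Cd4 class cells with 2 or more of the 5 genes, and 0 lay in the regulatory T cell-like cluster. Of the rest 7 lay in the clusters led by Lyz2 or Cd209a, 2 in one led by Ccl4 and Ccl3, 1 in one led by Tmem108 and 1 in the natural killer-like one. Since Gzmk and Ccl5 differ between members and matched cells and also define a cluster, the shares of members and of matched cells in each cluster are not set against each other. At a coarser setting the clusters led by Dapl1 and by Gzmk were 1 cluster, which held 37 members.

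Antibody counts were sparse. The 138 antibodies gave 79 counts over the 81 members and 84 over the 81 matched cells, or 97.5 and 104 counts per 100 cells. Against CD8a there were 3 counts in members and 1 in matched cells, and CD4 had 0 in both, against 43 counts in the 945 Cd4 class cells with 2 or more of the genes. CD45.2, the congenic marker of the transferred CD8 cells, had 4 counts in members, 0 in matched cells and 9 in all comparison cells, and CD45.1, that of the CD4 cells, had 0, 2 and 29. Per 100 cells CD45.2 thus had 4.94 counts in members (1.35 to 12.6), against 0.354 in all comparison cells (0.162 to 0.671). CD152, which is CTLA-4, had 3.70 (0.764 to 10.8) and 0.314 (0.136 to 0.619). These values rest on 4 and 3 counts and are picked from 138 antibodies. The comparison cells were not matched in depth, so no difference in protein is read from them. Over all antibodies the members also had more counts, at 97.5 per 100 cells (77.2 to 122) against 64.0 (60.9 to 67.2). Against the matched cells the intervals of every antibody overlapped.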

How the data were processed

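The deposited files hold UMI counts of 14811 genes and counts of 138 antibodies in 5564 cells of 1 library (26763131 UMIs, all barcodes different), with the authors' identity and class of each cell. The counts were made before deposit with tools of which Cell Ranger 3.1.0, Seurat 3.2.3 and build mm10 are named, with no role, per the submitters' processing notes. Hashtag and T cell receptor libraries were not used here. No other column of per-sample values was left out.

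Levels are UMIs summed over cells and divided by all UMIs but those of 117 receptor genes (0.325% of UMIs), in CPM, and log2 ratios add 5 CPM. Sums have exact Poisson intervals, shares exact Clopper-Pearson intervals, and ratios exact conditional binomial intervals (scipy 1.17.1, Python 3.11.15, numpy 2.4.6). The calculation was tested on simulated data. Each member was matched, deepest first, to the unused cell nearest in log2 UMIs outside the 5 genes, within 0.25. Thinning drew 2000 UMIs from a cell. Clusters (scanpy 1.11.5, Leiden with igraph 0.11.9) used 2000 variable genes without the 5 genes, Cd4, Cd8a, Cd8b1 and receptor, mitochondrial and ribosomal genes, 20 components, 15 neighbours and resolution 0.6, which was chosen after resolution 0.5 had joined the clusters led by Dapl1 and Gzmk. T cell clusters were set after their genes were seen. No doublet caller was run.

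A rule named 96 genes, of which the text gives a part. It takes the 12 highest and the 12 lowest log2 ratios. A gene had to reach 20 CPM in its higher group, 100 UMIs in all, a UMI in 5% of its cells, an interval without 1 and 1 direction in hashtag numbers 3 and 4, the only ones with 20 members and 20 matched cells. To these it adds the 5 genes, Cd4, Cd8a, Cd8b1, Runx3, Foxp3 and the 2 highest and 2 lowest measured genes of each list. Genes called within a list and Foxp3-related counts are named beside them. The members and lists were chosen with earlier results of these data known. Alternatives covered matching, depth, scaling (TMM, edgeR 4.0.16, R 4.3.3), pseudocount, filters, the rule itself and cells left out. Results for some items are not reported here.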

Additional observations from a re-analysis of the deposited data

How the results depend on the processing

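No paired analysis was possible because all cells come from 1 library and the hashtag numbers tie no samples together. The values had no test, so they are said to move or to change sign. Of 53 called genes that were followed, 26 kept 1 direction in all 22 settings, among them Eomes, Gzmk, Gata3, Tnfrsf18, Icos and Ctla4. Tgfbi, H2-DMb1, H2-Ab1, Alox5ap, Cdkn1a and Irf8, of the 12 lowest abundant genes, were not followed. In these the 2 richest matched cells held between 47.1% and 70.9% of the matched UMIs. Some settings could not change a direction. Filters of 100 or 5 UMIs leave each ratio as it was, and a pseudocount of 1 or 20 CPM keeps its sign. The sizes moved, and the log2 ratio of Icos ran from 0.34 to 2.05 and that of Tnfrsf18 from 0.64 to 1.76. The CD8 lineage, cytotoxic, CD4 lineage and helper, costimulation, naive and memory and regulatory T cell lists were followed as main lists. For their medians, the counts of genes and the share of members, 152 values stayed within the limits set for a move and 27 did not. Of the values of single genes and of the other lists, 1875 stayed, 317 moved and 51, all of single genes, changed sign. The cause of these changes was not tested beyond what each setting leaves out. The values as reported are 279 genes higher and 158 lower, 1.48 for the regulatory T cell list, which the filter in part fixed, 0.69 for costimulation and a share of 3.08%. Against all other Cd8-identity cells, there were 678 genes higher, the median log2 ratio was 0.95 for the regulatory T cell list and log2 ratios of opposite sign were 0.099 for Ccl2, 0.39 for Cd74, 1.39 for Lyz2, -0.093 for Ccl4, -0.034 for Ifit3 and 0.77 for Ccr9. With 5 matched cells per member, chosen after seeing the data, there were 458 genes higher and log2 ratios of opposite sign were 0.57 for Lyz2, -0.73 for Ccl4 and 0.027 for Ccr9. With 3 or more of the 5 genes asked for (9 members), there were 75 genes higher and 37 genes lower, members made up 0.343%, median log2 ratios were 0.43 for the CD8 lineage list, 2.05 for the CD4 lineage and helper list, 1.76 for the costimulation list and 1.05 for the naive and memory list and log2 ratios of opposite sign were -0.26 for Cd6, -0.0010 for Odc1, 3.66 for Xcl1, 0.024 for Ccl5, -0.0010 for Il21r and -0.21 for Gzma. After thinning to 2000 UMIs, there were 90 genes higher and 66 genes lower and log2 ratios of opposite sign were -0.37 for Cdc20 and -0.49 for Prc1. Among genes of 100 or more UMIs, there were 76 genes higher and 35 genes lower. Without cells with a Cd4 UMI (53 members), there were 96 genes lower, members made up 2.33% and log2 ratios of opposite sign were 0.42 for Cd74, -0.29 for Cdc20 and -0.00044 for Ccnb2. Without cells with UMIs of other cell types (75 members), there were 97 genes lower and log2 ratios of opposite sign were 3.47 for Cd74, -0.0015 for Ccl4, -0.044 for Ifit3 and 0.059 for Ccr2. In T cell clusters only (73 members), there were 97 genes lower, the median log2 ratio was 0.86 for the regulatory T cell list and the log2 ratio of opposite sign was 2.36 for Cd74. With the rule on 4 genes without Tnfrsf4 (35 members), there were 105 genes lower, members made up 1.33% and log2 ratios of opposite sign were -0.12 for Odc1, -0.14 for Kcnn4, -0.83 for Gzmc, -0.38 for Cd200r1 and -0.0011 for Il21r. With matching within the hashtag number (80 members), median log2 ratios were 0.20 for the costimulation list and 0.71 for the regulatory T cell list and log2 ratios of opposite sign were 0.083 for Cd74, -0.41 for Ccl4, -0.11 for Nr4a1, -0.046 for Ccr7, 1.10 for Ccr9 and -0.15 for Ccnb2. Without cells with a Foxp3 UMI (74 members), the median log2 ratio was 0.99 for the regulatory T cell list and the log2 ratio of opposite sign was -0.12 for Maf. Without cycling cells (60 members), the median log2 ratio was 0.95 for the regulatory T cell list and log2 ratios of opposite sign were -0.85 for Foxp3, -0.00059 for Gzmc, -0.66 for Cdc20, -0.38 for Top2a, -0.45 for Ccnb2 and -0.00086 for Prc1. With 3 or more co-receptor UMIs (62 members), the median log2 ratio was 0.99 for the regulatory T cell list and log2 ratios of opposite sign were -0.35 for Ccl4 and -0.19 for Nr4a1. Without Tdp cells (56 members), log2 ratios of opposite sign were 0.41 for Cd74 and -0.61 for Cdc20. Against matched cells with none of the 5 genes, log2 ratios of opposite sign were 0.27 for Lyz2 and -0.048 for Ifit1. With 2 matched cells per member, log2 ratios of opposite sign were -1.83 for Ccl4 and -0.030 for Ifit3. With the rule applied to thinned cells, members made up 0.743%. The mean of each cell's own CPM gives no count of called genes. The depth of each cell and the 81 members limit what can be seen of low genes.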
